A study of Mus musculus with 23 samples.

Results

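The 9 genes described here are the hedgehog ligands Shh and Ihh, the receptor Ptch1, the co-receptor Boc, the signal transducer Smo, the ligand-binding inhibitor Hhip and the transcription factors Gli1, Gli2 and Gli3. They were chosen by name, and each array probe whose RefSeq accession maps to one of these symbols was taken, which gave 11 probes for 9 of the 20887 genes named on the arrays. The arrays held RNA of mice of the strain labelled B6/CL. Epithelium and mesenchyme were parted in 3 tissues of embryos at day 16.5, namely lacrimal gland (LG), harderian gland (HG) and eyelid together with ocular conjunctiva, and each of these 6 groups has 3 arrays. Whole LG (2 arrays) and whole HG (3 arrays) came from mice at 7 weeks. No treatment or allele is labelled for any group. The LG secretes the watery part of the tears and the HG a lipid-rich fluid.

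Hedgehog ligands are secreted proteins. In their absence Ptch1 holds Smo inactive and Gli3, with Gli2, is processed into a repressor of transcription; when ligand binds Ptch1, with Boc or a related co-receptor, Smo moves into the primary cilium and Gli proteins become activators. Ptch1, Gli1 and Hhip are themselves switched on by the pathway, so that they are read as its response genes, and Ptch1 and Hhip dampen it. In developing skin, hair follicle placodes make Shh, which acts on the follicle epithelium and on the dermis below it.

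A level here is log2 of a probe's processed signal minus the 75th percentile of its array, so that 0 is the brightness of the probe at that percentile. Levels are compared between groups for 1 probe and never between probes. The 75th percentile was 194 and 139 intensity units on the adult LG arrays and 313 to 857 on the others, and 42.4 to 64.6 percent of spots per array were well above background. Because dim probes sit at a fixed low signal, they appear higher on the adult LG arrays on this scale. A fold is therefore given as "at least" where the dimmer group had no array well above background; the dim arrays then enter at their lowest signal well above background, or at the probe's own signal where that was higher. Differences come from 1 limma fit of all 23 arrays to 16324 genes, and a gene was called at a Benjamini-Hochberg adjusted p under 0.05. An adjusted p beside an "at least" fold belongs to the fitted difference of the measured signals, and the bound itself was not tested. Of the 9 genes 8 passed the filter on dim probes, all except Ihh. The labels do not say whether arrays came from separate animals, so the p-values reflect the spread among these arrays alone, which may be technical. In whole tissue, fewer cells of a type and less RNA per cell cannot be told apart.

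The separated tissues carried the markers of their compartments. The summed level (log2) of 10 epithelium markers was 8.17 to 9.19 on the embryonic epithelium arrays and 2.06 to 6.10 on the mesenchyme arrays, where the 4.73 to 6.10 of eyelid mesenchyme stood above the 2.78 to 3.92 of LG mesenchyme and the 2.06 to 3.98 of HG mesenchyme. The summed level of 10 mesenchyme markers was 10.08 to 10.63 on the mesenchyme arrays, 7.32 to 7.82 in eyelid epithelium, 6.34 to 7.42 in HG epithelium and 5.98 to 6.56 in LG epithelium. No epithelium was free of them: all 10 mesenchyme markers were well above background on every embryonic epithelium array.

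Shh was detected in the eyelid and on no gland array. Its probe (A_52_P49014, printed as 10 spots on each array) had levels of -1.83, -1.36 and -1.60 in eyelid epithelium. Eyelid mesenchyme had -4.50, -5.10 and -3.83, of which replicates 1 and 3 were well above background. All 17 gland arrays, embryonic and adult, were below that mark, with group means from -7.18 in LG epithelium to -5.11 in adult LG, whose order cannot be read. Spot by spot, 10 of 10 were well above background on each eyelid epithelium array, with median intensities of 120, 203 and 196, against at most 1 of 10 on any gland array, with medians of 3.96 to 5.87.

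The difference between eyelid epithelium and eyelid mesenchyme was 2.88 ± 0.28 (log2, SE, adjusted p = 8.23e-08 with limma), a 7.36-fold higher level in epithelium, and the groups did not overlap. Within the 3 slides it was 2.68, 3.74 and 2.23. Against eyelid epithelium, Shh was at least 11.5-fold lower in LG epithelium and at least 8.77-fold lower in HG epithelium. The fitted differences, with background signals in the glands, were -5.59 (adjusted p = 1.66e-11 with limma) and -5.09 (adjusted p = 7.38e-11). Shh passed the filter on dim probes through eyelid epithelium alone, so its tests against that group are not independent of the filter. The 5 markers of hair placodes and follicles (Edar, Dkk4, Wnt10a, Lhx2 and Sostdc1) had a summed level of 5.27 to 5.38 in eyelid epithelium, with 5 of 5 detected. Their summed level was 3.06 to 3.64 in eyelid mesenchyme (4 detected), 3.03 to 3.25 in HG epithelium (4 to 5 detected) and 1.46 to 1.94 in LG epithelium (3 to 5 detected). The eyelid mesenchyme array with the most Shh, replicate 3, also had the highest summed epithelium markers of its group, 6.10 against 4.73 and 4.78, but not the highest summed epidermis markers, 4.95 against 5.40 in replicate 1 and 3.84 in replicate 2. The part of follicle or admixed epithelial cells in these Shh levels was not tested.

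Ihh, the second ligand, stayed close to background everywhere. Its probe (A_55_P2152225) was well above background on 2 of 3 HG epithelium arrays (-4.36 and -4.33, with the remaining array at -4.75), and on 1 of 3 arrays in each of LG epithelium, eyelid epithelium and eyelid mesenchyme. No array of LG mesenchyme, HG mesenchyme or the adult glands reached it. Without the filter on dim probes limma called Ihh in 0 of 18 comparisons (4 at an unadjusted p under 0.05), and the lowest adjusted p was 0.0575, for HG epithelium minus HG mesenchyme (1.39 ± 0.57). No difference in Ihh was detectable at these signals.

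**Figure D1:**
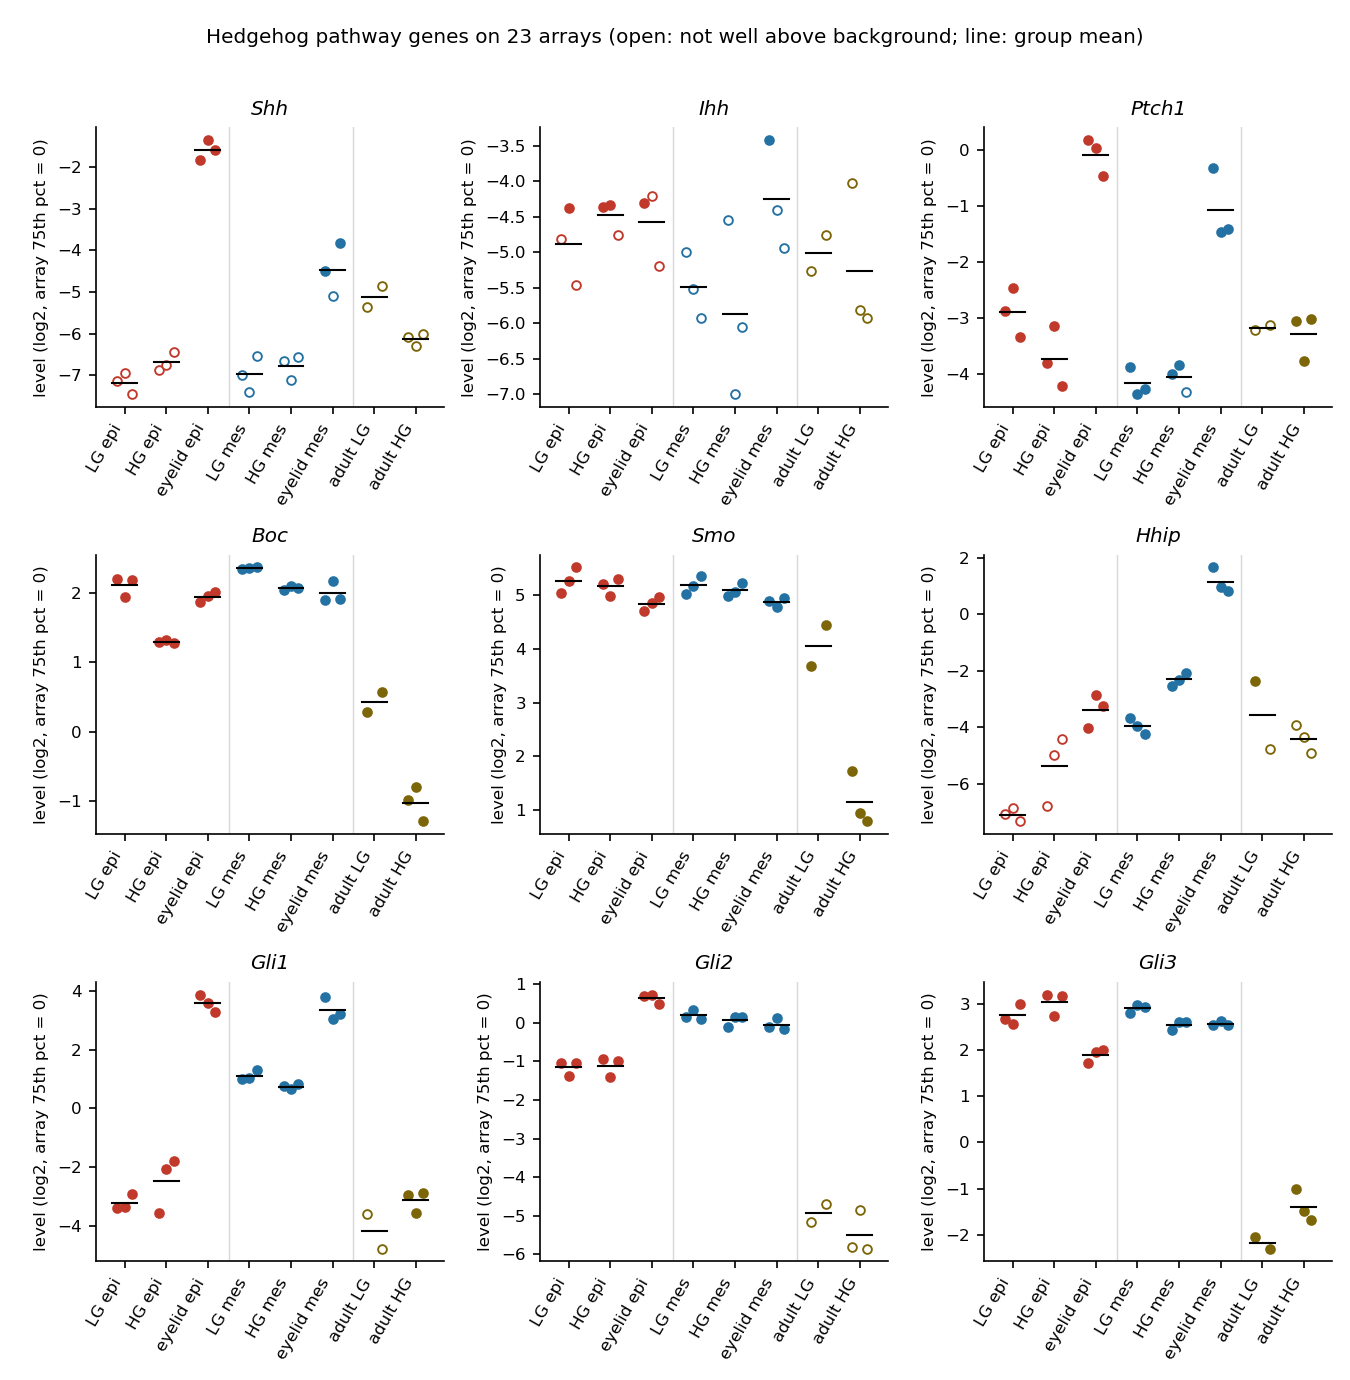
Level (log2, with the 75th percentile of the array at 0) of each gene on each of the 23 arrays, by group; filled points were well above background, open points were not, and lines are group means. Each panel has its own axis. Shh is filled in the eyelid only, Ptch1 and Gli1 are highest in both eyelid groups, and Gli2 and Gli3 are far lower in both adult glands.

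Ptch1, receptor and response gene in one, was highest in the eyelid on both sides of the tissue boundary. Its levels were 0.17, 0.03 and -0.48 in eyelid epithelium and -0.32, -1.48 and -1.41 in eyelid mesenchyme. LG epithelium had -2.89, -2.47 and -3.35, and HG epithelium had -3.82, -3.15 and -4.23. LG mesenchyme had -3.88, -4.37 and -4.27, and HG mesenchyme had -4.01, -3.85 and -4.33, the last of these not well above background. Every eyelid array therefore lay above every gland array. Ptch1 was 7.01-fold lower in LG epithelium than in eyelid epithelium (log2 difference -2.81 ± 0.33, adjusted p = 1.4e-06 with limma) and 12.5-fold lower in HG epithelium (-3.64 ± 0.33, adjusted p = 5.79e-08). In the mesenchymes it was 8.57-fold lower in LG (-3.10 ± 0.33, adjusted p = 1.01e-06) and 7.94-fold lower in HG (-2.99 ± 0.33, adjusted p = 2.09e-06).

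Between compartments Ptch1 ran opposite to Gli1 and Hhip in the LG. It was higher in LG epithelium than in LG mesenchyme by 1.26 ± 0.33 (log2, adjusted p = 0.00295 with limma, no overlap). In the eyelid the difference was 0.98 ± 0.33 (adjusted p = 0.0187) with overlapping groups. The HG difference of 0.33 ± 0.33 was not called (adjusted p = 0.417). The LG call was lost with normexp background correction (0.47), and the eyelid call was lost without eyelid epithelium replicate 1 (0.85) or 2 (0.92) and without eyelid mesenchyme replicate 2 (0.77) or 3 (0.81).

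Hhip, which binds hedgehog ligands at the cell surface and keeps them from Ptch1, was highest in eyelid mesenchyme, followed by HG mesenchyme. The probe that stands for it (A_55_P1969276) had levels of 1.66, 0.97 and 0.81 in eyelid mesenchyme, -2.53, -2.31 and -2.07 in HG mesenchyme, and -3.68, -3.94 and -4.22 in LG mesenchyme. Eyelid epithelium had -4.03, -2.87 and -3.24. No LG or HG epithelium array was well above background. The 3 mesenchymes thus formed 3 separate steps, with eyelid highest and LG lowest.

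In the eyelid, the difference of epithelium minus mesenchyme was -4.53 ± 0.55 (log2, adjusted p = 1.47e-06 with limma). Mesenchyme exceeded epithelium at least 2.25-fold in the LG and at least 5.05-fold in the HG. The fitted differences there, with background signals in epithelium, were -3.13 (adjusted p = 8.46e-05 with limma) and -3.07 (adjusted p = 0.000105). Against eyelid mesenchyme, the difference was -5.09 ± 0.55 in LG mesenchyme (adjusted p = 1.25e-06) and -3.45 ± 0.55 in HG mesenchyme (adjusted p = 0.000132). The step between LG and HG mesenchyme, -1.64 ± 0.55, had no overlap but missed the threshold (adjusted p = 0.0553), and it passed with the slide as a block (-1.64). The second probe (A_51_P416822) was well above background in eyelid mesenchyme alone, with levels of -2.12, -2.27 and -3.23. It there exceeded eyelid epithelium at least 4.24-fold and LG and HG mesenchyme at least 5.75-fold and 4.48-fold. That probe passed the filter on dim probes through eyelid mesenchyme alone, so its excess there is not independent of the filter. The gland part of the pattern therefore rests on 1 probe. Summed skeletal muscle markers were 7.17 to 7.40 in eyelid mesenchyme, 1.73 to 3.51 in HG mesenchyme and -0.36 to -0.05 in LG mesenchyme. Among the mesenchymes this is the same order as Hhip. The gland epithelia, where Hhip was below background, had 2.15 to 2.22 in LG and -0.56 to 1.90 in HG. The part of muscle cells in the Hhip levels was not tested.

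Promoters are shown for Ptch1 and Hhip because these 2 response genes were both higher in eyelid than in gland mesenchyme; of the 9 genes 6 had a promoter window in the RefSeq table of build GRCm38.p6 (not Shh, Gli1 or Boc). The stretches below lie upstream of a RefSeq start on the minus strand and are written 5′ to 3′, with CG dinucleotides in capitals. That of Ptch1 is 250 bases at chr13:63565736-63565985 and lies within the span of the gene, because a longer transcript begins further upstream. That of Hhip is 198 bases at chr8:80058061-80058258.
Ptch1: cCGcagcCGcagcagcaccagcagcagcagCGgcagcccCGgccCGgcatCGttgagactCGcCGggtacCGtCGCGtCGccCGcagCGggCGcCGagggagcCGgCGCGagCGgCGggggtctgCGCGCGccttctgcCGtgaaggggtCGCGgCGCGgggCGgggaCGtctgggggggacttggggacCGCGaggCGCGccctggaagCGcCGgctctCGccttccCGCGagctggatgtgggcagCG
Hhip: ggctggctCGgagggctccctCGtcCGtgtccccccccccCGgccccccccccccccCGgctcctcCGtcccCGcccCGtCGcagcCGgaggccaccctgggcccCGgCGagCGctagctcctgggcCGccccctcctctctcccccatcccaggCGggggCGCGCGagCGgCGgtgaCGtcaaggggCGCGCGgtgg

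These stretches hold 41 and 24 CG dinucleotides. Over the full 300-base windows the counts were 47 for Ptch1, more than in 98.6 percent of 32817 promoter windows, and 30 for Hhip, more than in 88.3 percent, where the median window held 7. The 9-base Gli consensus GACCACCCA was searched on both strands. It is present in 0.253 percent of all windows exactly and in 6.75 percent with up to 1 mismatch, and in 0 of the 6 member windows either way, which says only that these letters are not in these windows.

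Boc, the co-receptor, separated the 2 gland epithelia. Its levels were 2.20, 1.94 and 2.19 in LG epithelium and 1.29, 1.33 and 1.28 in HG epithelium, the lowest of the embryonic groups; eyelid epithelium had 1.87, 1.95 and 2.01, and the mesenchymes ranged from 1.90 to 2.37. LG exceeded HG epithelium by 0.81 ± 0.13 (log2, adjusted p = 0.000446 with limma), with no overlap. HG epithelium was lower than HG mesenchyme (-0.77 ± 0.13, adjusted p = 5.59e-05) and lower than eyelid epithelium (-0.64 ± 0.13, adjusted p = 0.000587). Within slides the difference between the gland epithelia was 0.91, 0.61 and 0.90. With arrays centred on their median it was 0.85 and not called, and the difference between HG and eyelid epithelium (-0.46) was not called either. LG mesenchyme exceeded eyelid mesenchyme by 0.36 ± 0.13 (adjusted p = 0.0446), a call that was lost without any one of the LG mesenchyme arrays or eyelid mesenchyme replicate 1 or 3 (0.31 to 0.37).

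Smo, which carries the signal across the membrane, hardly varied in the embryo. The probe that stands for it (A_51_P258766) ranged from 4.71 to 5.52 over the 18 embryonic arrays, and the second probe (A_55_P2121484) from 0.95 to 1.76 on its own scale. Smo was called in 0 of the 13 embryonic comparisons by either probe; none had an unadjusted p under 0.05 for either probe in limma's fit. The widest of these differences for the first probe, LG minus eyelid epithelium, was 0.44 ± 0.22.

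Gli1, whose transcription is the most direct readout of the active pathway, was high in both eyelid compartments, intermediate in gland mesenchyme and low in gland epithelium. Its levels were 3.88, 3.59 and 3.29 in eyelid epithelium and 3.81, 3.06 and 3.21 in eyelid mesenchyme. LG mesenchyme had 0.99, 1.03 and 1.31, and HG mesenchyme had 0.75, 0.67 and 0.82. LG epithelium had -3.39, -3.35 and -2.91, and HG epithelium had -3.55, -2.06 and -1.80. Eyelid, gland mesenchyme and gland epithelium did not overlap.

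Gli1 was 20.1-fold lower in LG epithelium than in LG mesenchyme (log2 difference -4.33 ± 0.37, adjusted p = 1.22e-08 with limma) and 9.32-fold lower in HG epithelium than in HG mesenchyme (-3.22 ± 0.37, adjusted p = 6.03e-07). In the eyelid the difference was 0.23 ± 0.37 (adjusted p = 0.643) and the compartments overlapped. Within slides the LG difference was -4.39, -4.38 and -4.22, the HG difference -4.30, -2.73 and -2.63, and the eyelid difference 0.07, 0.54 and 0.08. Against eyelid epithelium Gli1 was 111-fold lower in LG epithelium (-6.80 ± 0.37, adjusted p = 4.86e-11) and 66.7-fold lower in HG epithelium (-6.06 ± 0.37, adjusted p = 3.15e-10). Against eyelid mesenchyme it was 4.76-fold lower in LG mesenchyme (-2.25 ± 0.37, adjusted p = 0.000127) and 6.11-fold lower in HG mesenchyme (-2.61 ± 0.37, adjusted p = 3.67e-05). Within HG epithelium, replicate 1 had the lowest Gli1 (-3.55) and the lowest summed mesenchyme markers, 6.34 against 7.02 and 7.42; the part of admixed mesenchyme in these values was not tested.

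Gli2, the main activator of the family, followed Gli1 in the glands and reversed in the eyelid. It was lower in epithelium than in mesenchyme in the LG (-1.04, -1.39 and -1.04 against 0.14, 0.33 and 0.09) and in the HG (-0.94, -1.41 and -0.99 against -0.12, 0.16 and 0.15). In the eyelid it was higher in epithelium (0.70, 0.73 and 0.49 against -0.11, 0.13 and -0.17). The differences were -1.34 ± 0.22 in LG (adjusted p = 4.29e-05 with limma), -1.18 ± 0.22 in HG (adjusted p = 0.00017) and 0.69 ± 0.22 in the eyelid (adjusted p = 0.014). The groups did not overlap in any of the 3 tissues. Across epithelia Gli2 was lower than in the eyelid in LG (-1.80 ± 0.22, adjusted p = 2.64e-06) and in HG (-1.76 ± 0.22, adjusted p = 3.94e-06), while the 3 mesenchymes lay between -0.17 and 0.33 with no difference called. The eyelid call was lost without eyelid mesenchyme replicate 3 (0.63) and with arrays centred on their median (0.63).

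Gli3, the main repressor of the family, ran the other way across the epithelia. HG epithelium had 3.20, 2.74 and 3.17, LG epithelium 2.68, 2.57 and 2.99, and eyelid epithelium 1.72, 1.96 and 1.99, while the mesenchymes lay between 2.43 and 2.98. Gli3 was higher than in eyelid epithelium by 0.86 ± 0.17 in LG (log2, adjusted p = 0.000396 with limma) and by 1.15 ± 0.17 in HG (adjusted p = 2.13e-05), with no overlap. Between compartments the difference was -0.68 ± 0.17 in the eyelid (adjusted p = 0.00243), 0.49 ± 0.17 in the HG (adjusted p = 0.0189) and -0.16 ± 0.17 in the LG (adjusted p = 0.451). The HG call was lost without HG epithelium replicate 1 (0.41) or 3 (0.42), without HG mesenchyme replicate 1 (0.43) and with arrays centred on their median (0.54), which also lost the eyelid call (-0.74).

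**Figure D2:**
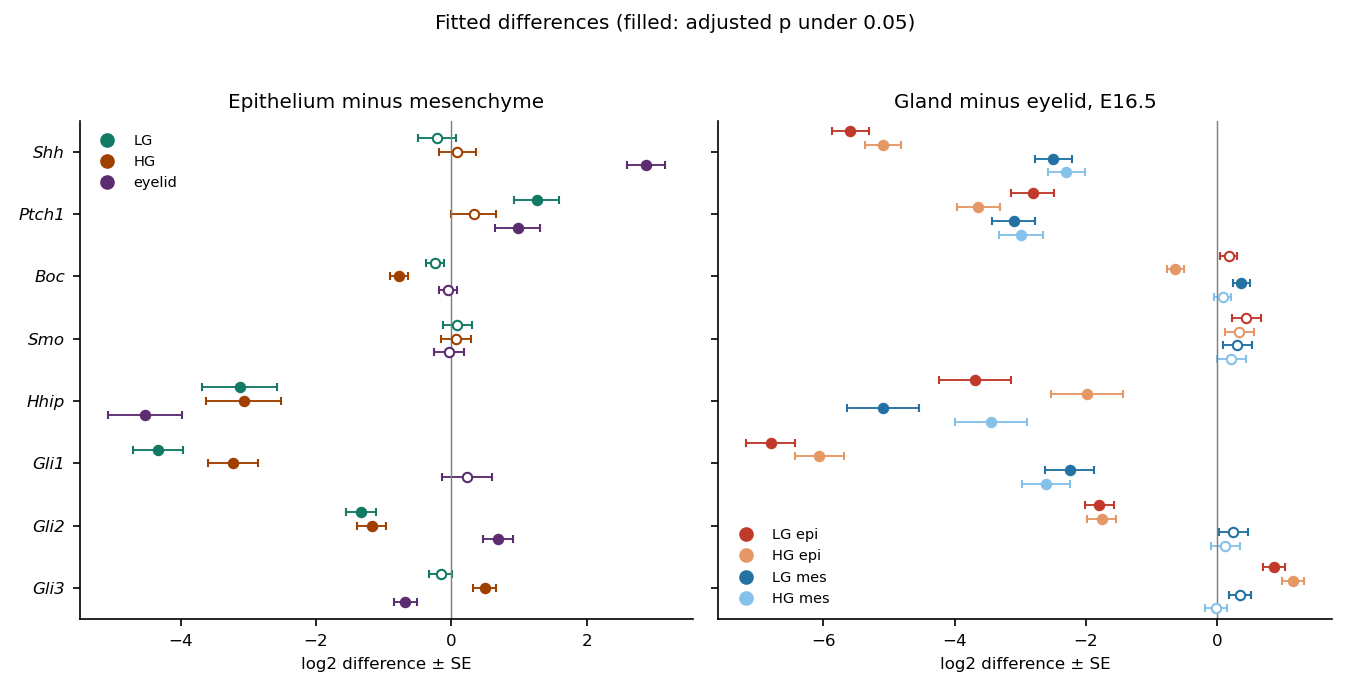
Fitted log2 differences ± SE at embryonic day 16.5, epithelium minus mesenchyme in 3 tissues (left) and gland minus eyelid in both compartments (right); filled points had an adjusted p under 0.05. Values for Shh in the glands and Hhip in gland epithelium come from arrays below background and are not folds. Gli1 lies near -4.33 and -3.22 in the glands and near 0 in the eyelid, and Gli2 changes sign between glands and eyelid.

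Of the 8 genes tested, 1 was higher and 5 were lower in LG than in eyelid epithelium (Gli3 against Shh, Ptch1, Hhip, Gli1 and Gli2), where 45.5 percent of all genes were called (27.2 higher, 18.3 lower). For HG against eyelid epithelium 1 was higher and 6 were lower, Boc being the addition, where 44.6 percent of all genes were called (26.6 higher, 18.0 lower). The Hhip call among these, at least 2.39-fold lower in HG epithelium (adjusted p = 0.00655 with limma), was lost without HG epithelium replicate 1 (-1.3) and with normexp correction (-0.48). In mesenchyme, Shh, Ptch1, Hhip and Gli1 were lower in LG than in eyelid and Boc was higher, where 31.2 percent of all genes were called (15.5 higher, 15.7 lower). The same 4 were lower in HG than in eyelid mesenchyme and 0 were higher, where 22.4 percent of all genes were called (11.1 higher, 11.3 lower). Shh was above background in eyelid mesenchyme on 2 of 3 arrays, and at least 1.51-fold and 1.17-fold lower in LG and HG mesenchyme. The median difference of the 8 genes was -2.31, -1.88, -1 and -1.16 in these 4 comparisons, where that of all genes was 0.104, 0.107, 0.0385 and 0.0641. The 2 comparisons in each compartment share the eyelid arrays, and Shh entered these counts only because it passed the filter in eyelid epithelium.

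Between LG and HG epithelium 1 of 8 was called, Boc, higher in LG, where 6.35 percent of all genes were called (2.96 higher, 3.39 lower). Gli1 (-0.75 ± 0.37, adjusted p = 0.368 with limma) and Ptch1 (0.83 ± 0.33, adjusted p = 0.199) were not called, though without HG epithelium replicate 1 the Gli1 difference of -1.29 was called, as was that of Hhip (-2.40), which is below background in both. Between LG and HG mesenchyme 0 of 8 were called by limma (3 at an unadjusted p under 0.05: Hhip, Boc and Gli3), where 14.3 percent of all genes were called (6.46 higher, 7.85 lower).

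Between compartments 1 was higher and 3 were lower in LG epithelium, where 58.6 percent of all genes were called (32.1 higher, 26.5 lower). In the HG 1 was higher and 4 were lower, where 57.9 percent of all genes were called (29.8 higher, 28.1 lower). In the eyelid 3 were higher and 2 were lower, where 51.2 percent of all genes were called (25.7 higher, 25.5 lower). Averaged over the 3 tissues 2 were higher (Shh and Ptch1) and 4 were lower (Hhip, Gli1, Gli2 and Boc), where 70.6 percent of all genes were called (38.7 higher, 32.0 lower). The shares called thus lie near the background, while the direction for single genes differed by tissue. The averaged Shh difference (0.92) came from the eyelid, as Shh was below background in the glands. Gli2 was lower on average (-0.61) but called higher in eyelid epithelium (0.69). Dependence of the compartment difference on tissue was tested with limma's moderated F, which called Gli1 (F = 41.4, adjusted p = 3.76e-06), Shh (F = 37.4, adjusted p = 6.88e-06), Gli2 (F = 25.9, adjusted p = 5.4e-05), Gli3 (F = 12.0, adjusted p = 0.00233) and Boc (F = 8.15, adjusted p = 0.0104), 5 of 8 against 42.3 percent of all genes. It did not call Ptch1 (F = 2.11), Hhip (F = 2.23) or Smo (F = 0.105). Shh was tested only because it passed the filter in eyelid epithelium, so its F is not independent of the filter. With arrays centred on their median Gli3 (F = 4.53) and Boc (F = 1.64) were not called, and Hhip was called with normexp correction (F = 55.4), with its probes averaged (F = 24.4) and without HG epithelium replicate 1 (F = 5.25).

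Taken by pairs of tissues, the compartment difference of Gli1 was more negative than in the eyelid in LG (-4.56 ± 0.52, adjusted p = 2.04e-06 with limma) and in HG (-3.45 ± 0.52, adjusted p = 5.04e-05). That of Gli2 was more negative as well, in LG (-2.04 ± 0.31, adjusted p = 5.61e-05) and in HG (-1.87 ± 0.31, adjusted p = 0.000142). For LG against eyelid 0 of 8 genes were higher and 3 lower in this way, where 37.2 percent of all genes were called (20.6 higher, 16.7 lower). For HG against eyelid 1 was higher and 4 were lower, where 36.4 percent of all genes were called (19.5 higher, 16.9 lower). For LG against HG 0 of 8 were called by limma (3 at an unadjusted p under 0.05: Gli1, Gli3 and Boc), where 8.71 percent of all genes were called (4.67 higher, 4.04 lower).

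In the adult glands Gli2 and Gli3 were far below their embryonic levels in both compartments, and Gli1 was far below that of gland mesenchyme. Gli3 had -2.05 and -2.30 in adult LG and -1.02, -1.48 and -1.67 in adult HG, every array below every embryonic one. It was lower than in LG epithelium (-4.93 ± 0.19, adjusted p = 1.49e-13 with limma) and LG mesenchyme (-5.08 ± 0.19, adjusted p = 9.09e-14), and lower than in HG epithelium (-4.43 ± 0.17, adjusted p = 8.8e-14) and HG mesenchyme (-3.94 ± 0.17, adjusted p = 4.1e-13). These are 15.3-fold to 33.8-fold changes. Gli2 was not well above background on any adult array. Its adult level was at least 3.68-fold and 9.33-fold lower than in LG epithelium and mesenchyme, and at least 8-fold and 18.1-fold lower than in HG epithelium and mesenchyme.

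Gli1 in adult LG (-3.60 and -4.77) was not well above background, at least 17.7-fold lower than in LG mesenchyme (adjusted p = 1.8e-09 with limma). In adult HG (-2.94, -3.55 and -2.88) it was lower than in HG mesenchyme (-3.87 ± 0.37, adjusted p = 2.74e-08) but not called against HG epithelium (-0.65 ± 0.37, adjusted p = 0.125). The calls of Gli1 between adult LG and LG epithelium (-0.97) and between adult LG and adult HG (-1.06) have adult LG below background, allow no fold and changed sign with normexp correction (0.74 and 0.37).

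Boc was 0.29 and 0.58 in adult LG and -0.98, -0.80 and -1.29 in adult HG, again below every embryonic array. It was lower than in LG epithelium (-1.67 ± 0.15, adjusted p = 1.05e-08 with limma) and HG epithelium (-2.32 ± 0.13, adjusted p = 1.76e-11). Adult LG exceeded adult HG by 1.46 ± 0.15 (adjusted p = 1.35e-07), the same direction as between the embryonic epithelia.

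No fall was detected for Ptch1, but there was little room to see 1. The lowest signals well above background on the adult HG arrays were -4.05, -4.35 and -3.94. Embryonic means of Ptch1 were only -3.73 in HG epithelium and -4.06 in HG mesenchyme. Its adult HG levels of -3.06, -3.78 and -3.02 were not called against embryonic HG epithelium, with overlapping groups (0.45 ± 0.33, adjusted p = 0.235 with limma) and lay above those of HG mesenchyme (0.78 ± 0.33, adjusted p = 0.0443). That call was lost without adult HG replicate 1 (0.67) or 3 (0.64), without HG mesenchyme replicate 1 (0.80) or 3 (0.64), and with normexp correction (0.51), median centring (0.65), quantile normalization (0.61) or no filter (0.78). In adult LG (-3.23 and -3.13) Ptch1 was not well above background, so its call against LG mesenchyme (0.99 ± 0.37, adjusted p = 0.0229) allows no fold. Whether Ptch1 fell from LG epithelium (mean -2.91) is not determined. The lowest signals well above background on the adult LG arrays were -3.30 and -2.77. Shh was below background on all adult arrays, so its 4 adult calls, all with both groups below background, carry no direction. Hhip in adult HG was at least 3.41-fold lower than in HG mesenchyme by its first probe (adjusted p = 0.00256), and the second probe was below background in both. In adult LG the first Hhip probe was well above background on 1 of 2 arrays (-2.35, against -4.76).

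Smo gave opposite answers by probe. The probe A_51_P258766 fell from 5.20, 4.98 and 5.31 in HG epithelium to 1.73, 0.95 and 0.79 in adult HG (-4.01 ± 0.22, adjusted p = 1.22e-11 with limma) and stood at 3.68 and 4.44 in adult LG. The probe A_55_P2121484 rose, from 1.22, 1.40 and 1.09 to 2.51, 1.70 and 1.66 (0.72 ± 0.21, adjusted p = 0.00594). Between adult LG and adult HG the first gave 2.90 ± 0.25 (adjusted p = 1.32e-08) and the second -0.39 ± 0.24 (adjusted p = 0.175). No direction is therefore given for Smo in the adult glands. Both probes are well above background on all 23 arrays.

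**Figure D3:**
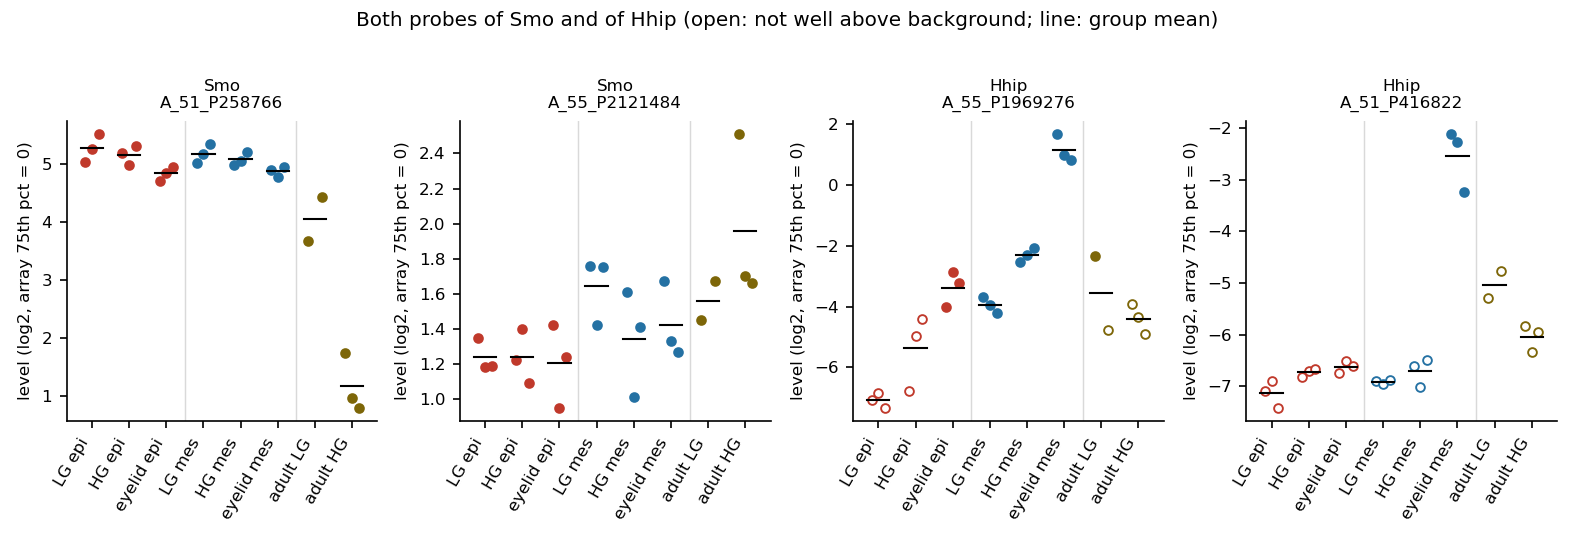
Levels (log2, with the 75th percentile of the array at 0) of both probes of Smo and of Hhip on the 23 arrays by group; filled points were well above background, and lines are group means. The Smo probes part in adult HG, and the second Hhip probe is above background in eyelid mesenchyme alone.

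Of the 8 genes 2 were higher and 5 lower in adult LG than in LG epithelium, where 69.8 percent of all genes were called (31.2 higher, 38.7 lower). The count was again 2 and 5 against LG mesenchyme, where 70.4 percent of all genes were called (32.6 higher, 37.8 lower). In adult HG 0 were higher and 4 lower than in HG epithelium, where 70.0 percent of all genes were called (34.4 higher, 35.6 lower). Against HG mesenchyme 2 were higher and 6 lower, where 68.7 percent of all genes were called (32.9 higher, 35.8 lower). Between the adult glands 3 were higher and 2 lower in LG, where 55.6 percent of all genes were called (22.4 higher, 33.2 lower). These counts include the calls of dim genes described above, and Smo as lower against the embryo and higher in LG by its first probe alone. Without Smo they were 2 higher and 4 lower for adult LG against each compartment, 0 and 3 for adult HG against epithelium, 2 and 5 against mesenchyme, and 2 and 2 between the adult glands. Summed lacrimal secretion markers were 10.42 to 11.01 in adult LG and summed harderian lipid markers 10.75 to 11.32 in adult HG. Summed mesenchyme markers were 7.02 to 7.12 in adult LG, with 7 of 10 detected, and 8.04 to 9.15 in adult HG; the part of cell composition in the adult differences was not tested.

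**Figure D4:**
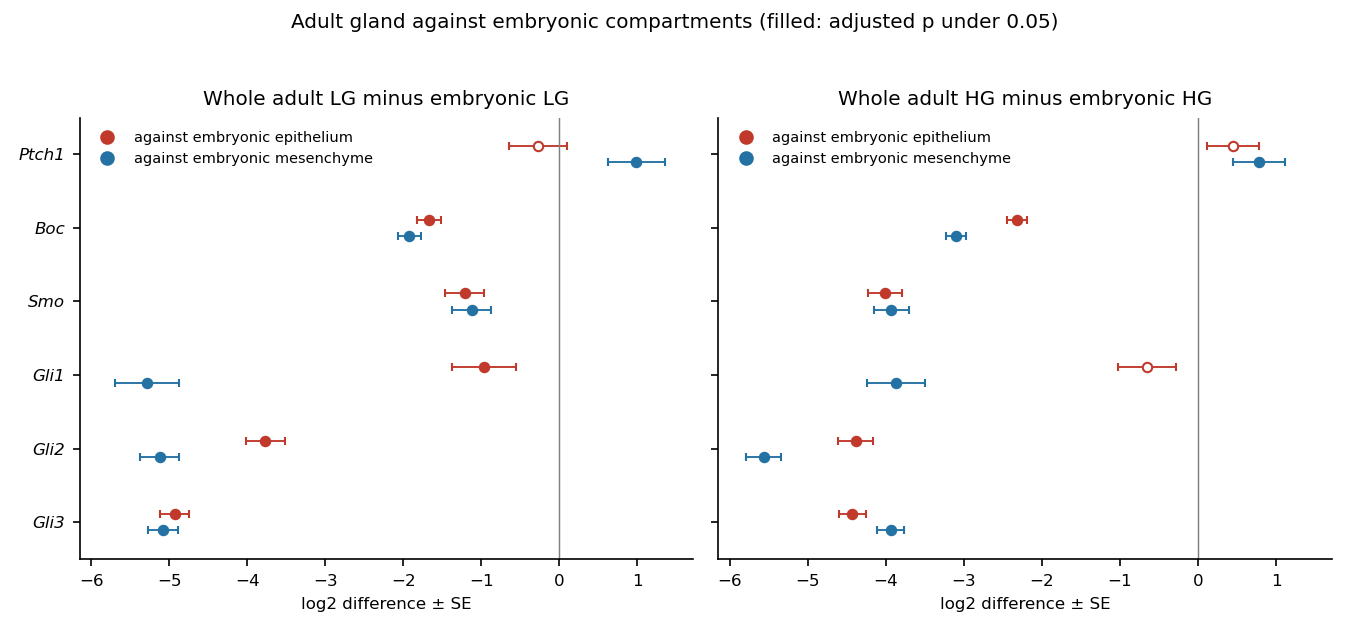
Fitted log2 differences ± SE between whole adult gland and embryonic epithelium or mesenchyme of the same gland; filled points had an adjusted p under 0.05. Shh and Hhip, dim in the adult glands, are not drawn; Smo is drawn by its first probe, and Gli2 in both adult glands and Gli1 and Ptch1 in adult LG were below background. Gli3 lies between -5.08 and -3.94 in all 4 comparisons.

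The other genes of the pathway were taken as lists. Of 7 further genes of ligand supply and release, 0 were higher and 5 lower in epithelium than in mesenchyme over the 3 tissues (median -1.21, all genes 0.0937). For this comparison and the lists that follow, the share called over all genes was 70.6 percent (38.7 higher, 32.0 lower). The 5 of 7 called is near the share in either direction, but all 5 were lower, where 32.0 percent of all genes were lower. Scube1, a secreted factor that helps to release lipid-modified ligand, was lower in epithelium (-3.22 ± 0.21, adjusted p = 1.24e-10 with limma). The relative Scube2 was lower as well (-1.93 ± 0.19, adjusted p = 3.22e-08). The ligand Dhh was lower too (-2.29 ± 0.41, adjusted p = 6.72e-05), and in the eyelid its difference was -4.48 ± 0.71, with 1 of 3 epithelium arrays above background. Dhh was well above background on all 3 arrays of eyelid mesenchyme, with a mean level of -0.24 ± 0.57 (SD, n = 3). All 3 arrays of LG mesenchyme were well above background for Dhh as well, with a mean level of -2.93. Disp2, of the family that exports the ligand, was lower (-1.21 ± 0.40, adjusted p = 0.012) but was above background on all arrays of LG mesenchyme alone. Disp2 passed the filter on dim probes through that group alone, so its call among the 5 lower is not independent of the filter.

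Of 6 co-receptors and surface modulators, 2 were higher and 3 lower in epithelium (median -0.50, all genes 0.0937), against 70.6 percent of all genes called. Lrp2, an endocytic receptor, was higher in epithelium, at least 18.1-fold in LG and at least 13.4-fold in HG. The co-receptor Gas1 was lower (-2.06 ± 0.11, adjusted p = 6.09e-12 with limma) as was the glypican Gpc6 (-2.32 ± 0.14, adjusted p = 3.2e-11). Gpc6 was 3.11 ± 0.24 higher in LG and 2.90 ± 0.24 higher in HG than in eyelid epithelium (adjusted p = 5.12e-09 and 1.62e-08).

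Of 17 genes of signal transduction, 4 were higher and 8 lower in epithelium (median -0.29, all genes 0.0937), against 70.6 percent of all genes called. The amounts were small: Sufu, which restrains Gli proteins, by 1.01 ± 0.21 (adjusted p = 0.000301 with limma), the kinase subunit Prkacb by -0.75 ± 0.09 (adjusted p = 5e-07), the ciliary protein Iqce by -0.69 ± 0.09 and the ubiquitin ligase part Btrc by -0.61 ± 0.12. Of 12 primary cilium genes, 2 were higher and 6 lower in epithelium (median -0.31, all genes 0.0937), against 70.6 percent of all genes called, led by Ift80 at -0.95 ± 0.11 and Tctn1 at -0.93 ± 0.10. In adult HG 10 of the 12 were lower than in HG epithelium and 11 lower than in HG mesenchyme, with 0 higher (medians -1.25 and -1.59, all genes 0.0569 and -0.00994). Of all genes 35.6 and 35.8 percent were called lower there, and 70.0 and 68.7 percent in either direction. In adult LG 8 and 9 of the 12 were lower and 3 higher (medians -1.34 and -1.54, all genes -0.099 and -0.0701), where 38.7 and 37.8 percent of all genes were lower and 31.2 and 32.6 percent higher. Ift80 was lower in adult HG (-2.72 ± 0.19 against HG epithelium, adjusted p = 2.91e-10) and in adult LG (-2.77 ± 0.21 against LG epithelium, adjusted p = 1.4e-09). Mks1, of the ciliary transition zone, was 3.28 ± 0.19 higher in adult LG than in LG epithelium (adjusted p = 4.15e-11).

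Of 17 genes reported elsewhere as hedgehog targets 16 were tested, and 5 were higher and 9 lower in epithelium (median -0.91, all genes 0.0937), against 70.6 percent of all genes called (38.7 higher, 32.0 lower). They did not move as one. Grem1, a BMP antagonist, was at least 21.7-fold lower in LG epithelium than in LG mesenchyme, and the mesenchymal factor Foxf1 at least 2.88-fold. Cdk6, a cell cycle kinase, and Foxl1 ran the other way, Cdk6 being at least 5.69-fold higher in LG epithelium and Foxl1 at least 4.93-fold higher in eyelid epithelium. Mycn, a growth regulator, was lower than in eyelid epithelium in LG (-3.78 ± 0.35, adjusted p = 6.52e-08 with limma) and in HG (-3.55 ± 0.35, adjusted p = 1.74e-07), whereas the cyclin Ccnd1 was 3.17 ± 0.17 higher in LG and 3.48 ± 0.17 higher in HG. In LG against eyelid mesenchyme 3 were higher and 7 lower, against 31.2 percent of all genes called (15.5 higher, 15.7 lower), the lower ones led by Bmp4 (-4.83 ± 0.33, adjusted p = 4.38e-09) and by the transcription factors Foxd1 and Hand2. Foxd1 was at least 12.8-fold and Hand2 at least 8.27-fold lower in LG mesenchyme, and Hand2 was above background in eyelid mesenchyme alone. Hand2 thus passed the filter on dim probes through that group alone, so its call among the 7 lower is not independent of the filter.

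The genes whose group means followed a member most closely were listed by Pearson's r over the 8 groups, as a description: the means share arrays, and for genes seen in the eyelid alone the values in other groups are background. For Shh they were Hoxa2 (r = 0.999), a homeobox gene, Gng4 (0.997), a G protein subunit, Skint8 (0.991) and Cfc1 (0.991). All 4 had their highest mean in eyelid epithelium, from -1.96 for Hoxa2 to 0.67 for Cfc1. For Ptch1 they were the hair keratins Krt35 (0.976) and Krt34 (0.958), 2310034C09Rik (0.957) and the homeobox gene Hoxc6 (0.956). For Gli1 they were the semaphorin receptor Plxnc1 (0.993), the transcription factor Klf8 (0.974), Tmem45a (0.970) and Cpne7 (0.960). For Hhip they were the muscle caveolin Cav3 (0.961), the neuropeptide gene Nts (0.960), Tafa2 (0.958) and Hey2 (0.958), a Notch response gene. Among the 8 genes themselves r was 0.901 between Shh and Ptch1 and 0.564 between Shh and Gli1, while Gli2, Gli3, Smo and Boc, all low in the adult glands by the probes used, had r from 0.764 to 0.934 with each other.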

How the data were processed

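RNA of 8 groups was measured on 23 1-colour (Cy3) Agilent mouse arrays, grouped by the submitters' labels. The deposited scanner files hold intensity per spot, background-subtracted and detrended by the authors' scanner software: Agilent Feature Extraction 11.5.1.1 per the submitters' processing notes, but 11.0.1.1 on slide 1 per the file headers. The deposited series matrix holds the same intensity averaged over spots. Probes were named from RefSeq accessions (GRCm38.p6): 27509 of 55681 probes matched 20887 symbols. Outlier spots were left out, spots averaged, and log2 taken minus the array's 75th percentile. Kept were probes with a share of 0.5 or more spots well above background on all arrays of at least 1 group. Where several probes of a gene were kept, the brightest on average was used for it. No spot was saturated.

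All arrays entered 1 fit in limma 3.58.1 (R 4.3.3; lmFit, eBayes, two-sided, Benjamini-Hochberg over 16324 genes, threshold 0.05), which was tested on simulated data. Files were handled with the data.table package (version 1.17.8) and pandas 2.3.3, and figures drawn with matplotlib 3.10.9. Members, lists and the rule for named genes were chosen with earlier results of these data known. Named were all 9 genes with every probe, of each other list up to 4 with the largest difference called over the 3 tissues and up to 3 called in a comparison described, and for Shh, Ptch1, Gli1 and Hhip the 4 most alike over group means; Dhh and Lrp2 in single tissues were singled out after their values were seen. Same-numbered embryonic arrays deviated together across genes (residual correlations 0.171 to 0.578). For embryonic arrays the replicate number is also the slide, so a pairing of samples and an effect of the slide cannot be told apart. The main fit had neither as a block, and both were run as alternatives. Same-numbered pairs with adult arrays did not all deviate together (lowest -0.34). Alternatives covered background correction, scaling, filters, probes, series matrix values, blocks and each array left out. Normexp, with an offset of 50, used spot and background medians. Signal over background and the number of arrays limit the precision. A gene of 1 list is not reported here by name.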

Additional observations from a re-analysis of the deposited data

Results flagged for a closer look

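By the moderated F test over LG, HG and eyelid, 5 genes had compartment differences that were not alike across tissues. The F value was 41.4 for Gli1, which was lower in epithelium in both glands and not called in the eyelid. It was 37.4 for Shh, seen in the eyelid alone and kept by the filter through eyelid epithelium alone. It was 25.9 for Gli2, which was lower in gland epithelium and higher in eyelid epithelium. It was 12.0 for Gli3, with differences called in opposite directions in HG and eyelid. It was 8.15 for Boc, called in the HG only. The F calls of Gli3 and Boc were lost with median centring. Groups of 3 or fewer arrays were not tested for single outlying arrays.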

How the results depend on the processing

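The number of members called stayed within 1.5 times the reported count in every comparison and alternative except the following, and the cause was not tested. For LG against HG mesenchyme (0 reported) 1 was called with normexp, with median centring, with the slide as a block and with it as a random block. With median centring 3 were called for eyelid epithelium against mesenchyme (5 reported), 0 for LG against HG epithelium (1 reported) and 3 by the F test (5 reported). With quantile normalization 1 was called for the compartment difference of LG against HG (0 reported). Leaving out 1 array at a time gave 0 to 1 there (1 without HG epithelium replicate 1 or 2), 1 to 3 for LG against HG epithelium (3 without HG epithelium replicate 1) and 3 to 5 for the eyelid compartments (3 without eyelid mesenchyme replicate 3). Counting only genes above background on an array of the groups compared, chosen after seeing the data, or leaving Smo out of the adult counts, also chosen after seeing the data, moved no count by more than that. Signs turned with normexp for Gli1 in adult LG against adult HG (0.37) and LG epithelium (0.74) and Ptch1 in adult LG against LG epithelium (0.74), with quantile normalization for Shh in adult LG against LG mesenchyme (-0.11), with the other probe for Hhip in adult HG against HG mesenchyme (0.66), and with the other Smo probe for adult LG against adult HG (-0.39), adult LG against LG epithelium (0.32) and adult HG against HG epithelium (0.72) and mesenchyme (0.61).

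With the replicate block, Gli1 in adult LG against adult HG (-0.99) and LG epithelium (-0.89) was no longer called; the block changed no other call of a member. All 43 member differences called between embryonic groups had 1 direction within all 3 slides. Over all genes, median centring lowered the counts called by over 1.5 times in 8 comparisons: LG against HG epithelium (630, reported 1037) and mesenchyme (1230, 2336), LG and HG against eyelid mesenchyme (2774, 5091; 2203, 3653), the compartment differences LG against HG (741, 1422), LG against eyelid (3471, 6077) and HG against eyelid (3395, 5948), and the F test (3952, 6907). It moved the median of all genes by up to -0.47 (adult LG against LG epithelium), and the share higher among calls there from 44.6 to 31.9 percent; leaving out the filter moved it by 0.565 and to 58.1 percent. For adult LG against adult HG the share was 40.3 percent, and 51.8 with normexp, 27.9 with median centring and 52.2 without the filter; for adult LG against LG mesenchyme it was 46.3, and 34.7 with median centring and 59.0 without the filter. Normexp used median spot signals, not means. Adult LG, with 2 arrays and the lowest signals, is known least well.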
